A study of Mus musculus with 6 samples.

Results

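The FGF pathway genes described here are 3 ligand genes (Fgf3, Fgf4 and Fgf15), 2 receptor genes (Fgfr1 and Fgfr2), 2 ETS transcription factor genes (Etv4 and Etv5) and 3 inhibitor genes (Spry2, Spry4 and Dusp6). Their contacts were read from promoter-capture Micro-C, in which cross-linked chromatin is cut with micrococcal nuclease, neighbouring ends are ligated and fragments at promoters (baits) are enriched. A bait was assigned to a gene when it overlapped the RefSeq gene body extended by 2 kb. This gave 11 of the 19083 baits in the files, at 8 of the 10 genes. None of the 19083 lay at Fgf3 or Fgf4. The files show a bait only through a listed loop or a tested entry, so a bait there without either cannot be told apart from no bait.

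All 6 libraries came from wild-type E14 (E14TG2a) cells, a mouse embryonic stem cell line, grown in serum with leukemia inhibitory factor and harvested 48 h after they were transfected with esiRNA, which is a mixture of short interfering RNAs cut by RNase III from long double-stranded RNA. Brg1KD cells received esiRNA against Smarca4, which encodes the remodeller ATPase Brg1. Ino80KD cells received esiRNA against Ino80, the ATPase of the INO80 remodeller, and Control cells received EGFP esiRNA. There were 2 libraries per group, the first of each in batch 1, the second of both depletions in batch 3 and the second Control library in batch 2. Separate cultures are not stated for the 2 libraries of a group, whose spread may therefore be technical. No RNA data were used here, so neither the depletions nor the expression of the FGF genes was checked. The lists held 16585 to 19045 loops per library, of which 12313 to 15385 joined ends on the same chromosome, and the read depth is unknown.

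FGF ligands bind receptor tyrosine kinases at the cell surface, and the signal passes through RAS and RAF to the kinase ERK. In mouse embryonic stem cells Fgf4 is made by the cells themselves, and FGF to ERK signalling moves them out of naive pluripotency toward differentiation. Etv4, Etv5, Spry2, Spry4 and Dusp6 are commonly used as readouts of the pathway because ERK signalling raises their transcription. Sprouty proteins and the phosphatase Dusp6 then dampen the signal, which makes them feedback inhibitors.

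The RefSeq table of promoters (build GRCm38.p6, the sequence of mm10) held 7 windows at 6 of the 10 genes. The 250 bases before the start are shown for Fgfr2 and Etv5, whose baits had the loops found in most libraries, and for Fgf4, whose promoter lay on none of the baits seen in the files. They are written 5′ to 3′ on the gene's strand, with GGGCGG, the GC box bound by Sp factors, in capitals in either orientation. The Fgfr2 window is chr7:130266809-130267058 (minus strand), the Etv5 window chr16:22439571-22439820 (minus strand) and the Fgf4 window chr7:144861136-144861385 (plus strand).
Fgfr2: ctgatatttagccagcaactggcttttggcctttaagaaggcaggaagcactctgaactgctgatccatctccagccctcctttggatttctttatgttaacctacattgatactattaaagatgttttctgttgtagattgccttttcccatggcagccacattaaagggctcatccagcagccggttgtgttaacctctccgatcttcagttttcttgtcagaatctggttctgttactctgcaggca
Etv5: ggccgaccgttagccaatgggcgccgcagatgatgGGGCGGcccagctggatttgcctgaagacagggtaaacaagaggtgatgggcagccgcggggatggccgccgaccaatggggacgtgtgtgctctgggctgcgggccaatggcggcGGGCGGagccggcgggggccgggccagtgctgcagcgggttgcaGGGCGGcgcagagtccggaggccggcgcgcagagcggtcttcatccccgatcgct
Fgf4: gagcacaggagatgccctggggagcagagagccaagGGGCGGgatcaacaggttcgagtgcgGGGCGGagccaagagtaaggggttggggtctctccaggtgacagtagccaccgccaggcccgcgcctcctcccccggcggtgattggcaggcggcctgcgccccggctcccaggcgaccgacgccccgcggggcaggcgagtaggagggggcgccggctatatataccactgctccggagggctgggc
The printed Etv5 window held 3 GC boxes, the Fgf4 window 2 and the Fgfr2 window 0, and a second Etv5 window, 22438369 to 22438618, also 0. The motif was in 2 of the 7 windows and in 32.7% of all 32851 promoter windows of this length. G and C made up 71.2% of the bases in the printed Etv5 and Fgf4 windows, 62.0% in the second Etv5 window and 44.0% in the Fgfr2 window, against a median of 52.4% over all windows. The ETS core CCGGAAG, bound by factors such as Etv4 and Etv5, matched in 0 of the 7 windows on either strand and in 6.91% of all windows. The E-box CACGTG, the TATA box TATAAA, the octamer part ATGCAAA and the Sox sites AACAAAG and AACAATG likewise matched in 0 of the 7, against 6.02%, 12.4%, 4.12%, 5.03% and 3.29% of all windows. These matches describe letters and not binding, and variants of a motif were not searched. The printed Fgf4 window, for example, holds tatatata, which TATAAA does not match.

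Over the 6 libraries the FGF gene baits had 38 same-chromosome listings of 18 distinct loops. Of these 18, 10 (55.6%) were listed in a single library, against 68.2% of all 49989 distinct loops. In 4 or more libraries there were 4 (22.2%), against 10.3% of all distinct loops. Apart from a single Etv5 loop, the 4 were all at Fgfr2. Its loops joined 2 neighbouring baits to 2 neighbouring ends and are not separate contacts, so the 22.2% rests largely on this gene. The listed ends of the 18 loops lay 107 to 616 kb from the bait, with a median of 239 kb. At each of the 8 genes they lay on a single side of the bait, which was largely fixed in advance. Dusp6, Etv4, Fgf15 and Spry2 had 1 distinct loop each, and the loops of the other genes went to the same or adjoining ends. No share over all baits is given beside it, so no trait of the FGF genes is read from this. None of the 18 ended on another bait, where loops between baits were 2.79% to 5.65% of the same-chromosome loops of a library. None therefore joined 2 FGF genes, but among the 8 genes only Fgf15 and Fgfr2 share a chromosome. They lie far apart on chromosome 7, so such a loop could hardly occur. Loops under the authors' minimum score of 5 were not listed, so a missing loop is not shown to be absent.

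**Figure D1:**
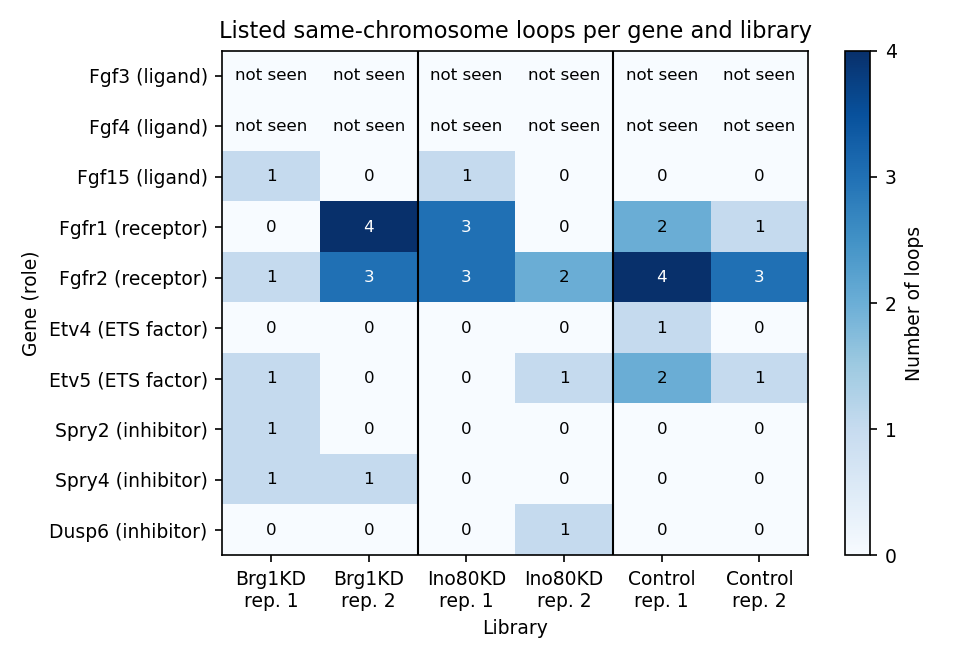
Number of listed same-chromosome loops per gene (down) and library (across), with Brg1KD, Ino80KD and Control from left to right. Fgfr2 is the gene with a loop in all 6 libraries, Fgfr1 and Etv5 have loops in 4 each, and for Fgf3 and Fgf4 no bait was seen in the files (marked not seen).

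**Figure D2:**
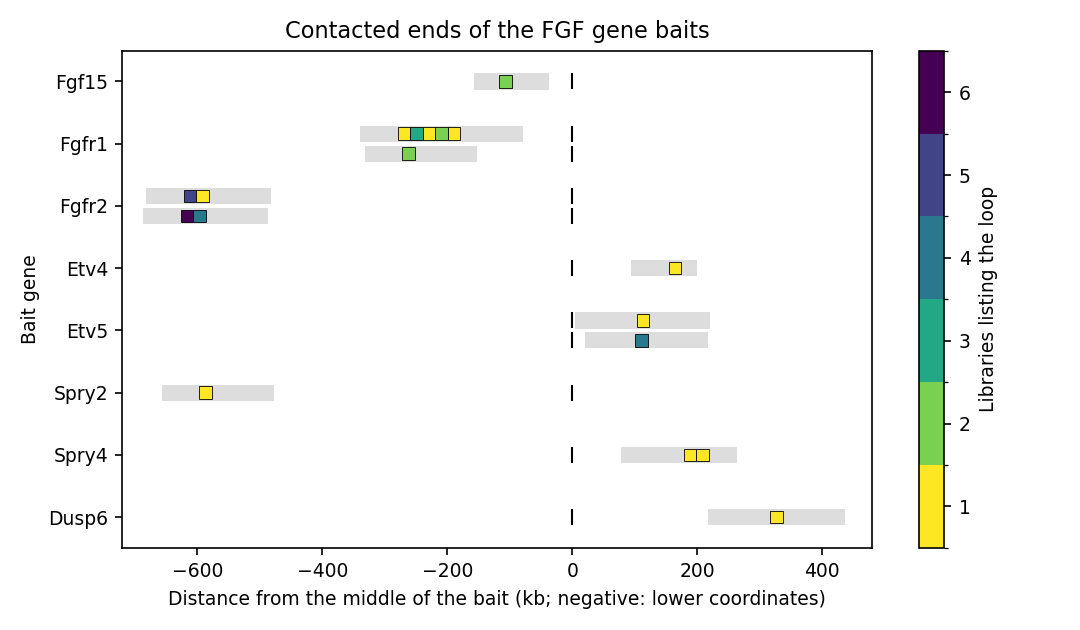
Position of each listed end relative to the middle of its bait, in kb, for the 8 genes with a bait. Coloured blocks are the ends, shaded by the number of libraries that list the loop, grey bars are the regions of the authors' comparison tables, and genes with 2 baits have 2 lines. The ends of Fgfr2 and Spry2 lie about as far from their baits, at 592 to 616 kb and 587 kb, and those of Etv5 lie at 110 to 113 kb.

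The numbers of listed loops at the FGF genes overlapped between the 3 groups. There were 5 and 8 loops in Brg1KD, 7 and 4 in Ino80KD, and 9 and 5 in Control. The groups overlapped in each pairing. Per 1000 same-chromosome loops these were 0.510 ± 0.147 in Brg1KD, 0.378 ± 0.136 in Ino80KD and 0.465 ± 0.169 in Control (SD, n = 2 each). The 95% Wilson interval of a single library reached from 0.173 to 0.950 in Brg1KD replicate 1 and from 0.308 to 1.11 in Control replicate 1, and it covers counting error only. The log2 ratio to Control was 0.13 for Brg1KD and -0.30 for Ino80KD, and that of Ino80KD to Brg1KD was -0.43, each with a two-sided exact permutation p of 0.667, where 2 against 2 libraries cannot go below 0.33. A single library set the direction of both comparisons with Control. Without Brg1KD replicate 2 the log2 ratio of Brg1KD was -0.20, and likewise -0.20 without Control replicate 2. That of Ino80KD was 0.028 without Ino80KD replicate 2 and 0.13 without Control replicate 1. Within batch 1, which holds 1 library of each group, the values were 0.406 per 1000 in Brg1KD, 0.475 in Ino80KD and 0.585 in Control.

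**Figure D3:**
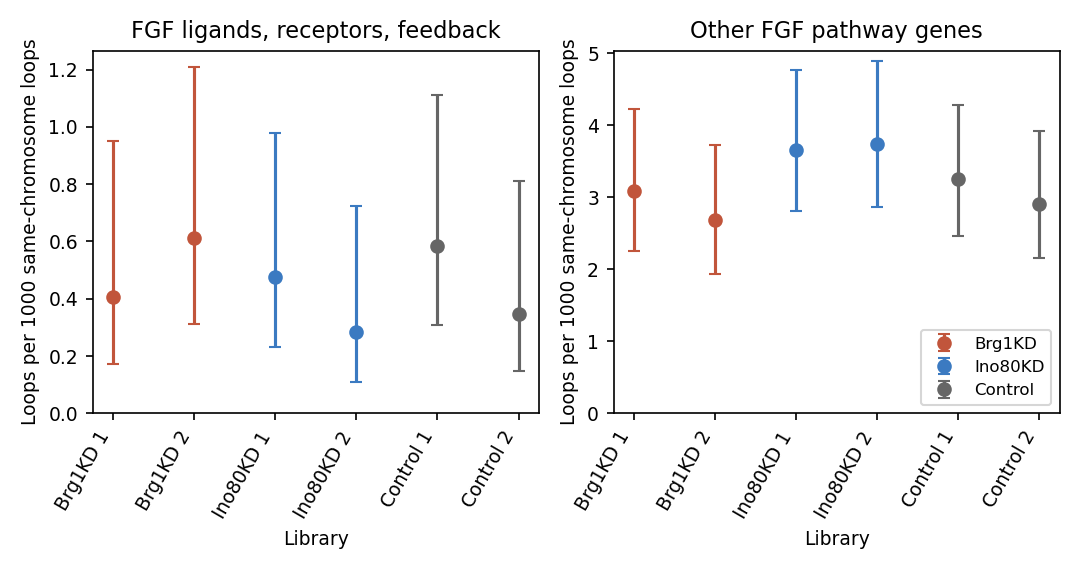
Loops per 1000 same-chromosome loops in each library for the FGF genes (left) and for the other genes of the pathway (right), with 95% Wilson intervals for counting error. On the left the libraries of the 3 groups interleave, from 0.282 to 0.614, and on the right both Ino80KD libraries (3.66 and 3.74) lie above the other 4.

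The median spans of the FGF gene loops were shorter in both Brg1KD libraries, at 209 and 256 kb, than in the libraries of Ino80KD, at 269 and 469.5 kb, and of Control, at 262 and 596 kb. Brg1KD did not overlap the other groups, while Ino80KD and Control overlapped. The nearest values, 256 kb in Brg1KD and 262 kb in Control, lie closer together than the 20 kb width of a listed end. Over all same-chromosome loops the medians were 221 and 261 kb in Brg1KD, 243 and 246 kb in Ino80KD, and 250 and 282 kb in Control. There Brg1KD overlapped both other groups. The mean of the median spans was 232 ± 33.3 kb in Brg1KD, 369 ± 142 kb in Ino80KD and 429 ± 236 kb in Control (SD, n = 2 each), against 241 ± 28.1, 245 ± 2.60 and 266 ± 22.5 kb over all same-chromosome loops. The exact permutation p was 0.333 for Brg1KD against Control and for Ino80KD against Brg1KD, the smallest this design allows, so these differences could not pass a threshold of 0.05. It was 1.00 for Ino80KD against Control. Each median rests on 4 to 9 loops. The span of a loop with given ends is fixed, so a median moves only with which loops are listed. The Fgfr2 loops spanned 592 to 616 kb and those of Fgfr1 189 to 269 kb. In Control replicate 2 3 of the 5 loops were at Fgfr2. The median of Control replicate 1, 262 kb, is the span of an Fgfr1 loop that Brg1KD replicate 2 also listed.

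Contacts were also compared by the authors, Brg1KD with Control and Ino80KD with Control, in deposited tables in which an entry joins a bait to a region of neighbouring fragments and has a log2 fold change, its SE and a p-value. The headers do not state the direction. Loops listed in both Brg1KD libraries and neither Control library had a value above 0 in the authors' deposited table in 83.4% of cases, and those listed the other way round in 16.8%. The shares for Ino80KD were 86.3% and 15.4%. A value above 0 is therefore taken to mean a contact that was higher after depletion. The FGF gene baits had 15 entries in the authors' deposited table for Brg1KD, at 7 genes, and 14 in that for Ino80KD, at 6 genes. For Brg1KD, 0 of the 15 had an unadjusted p under 0.05, where 1.20% of all 33243 entries of the authors' deposited table did (0.373% higher and 0.827% lower). For Ino80KD, 1 of the 14 did, where 1.29% of all 34774 entries of the authors' deposited table did (0.912% higher and 0.382% lower), and the single entry was that of Fgf15. No entry of either authors' deposited table passed an adjusted p of 0.05 (0 of 33243 and 0 of 34774, each at an adjusted p of 1.00). This holds for the unweighted adjusted p. The authors also give a weighted p-value with its own adjustment, which was not used here. The median log2 fold change of the FGF gene entries in the authors' deposited tables was 0.030 for Brg1KD and -0.022 for Ino80KD, beside -0.0084 and 0.0023 over all entries. Taken over baits, so that a bait with several entries counts once, the authors' deposited tables gave a median of 0.035 for Brg1KD and 0.031 for Ino80KD, so the sign for Ino80KD depends on this choice. Both tables use the same Control libraries, and neighbouring regions of a bait overlap, so the entries are not independent.

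**Figure D4:**
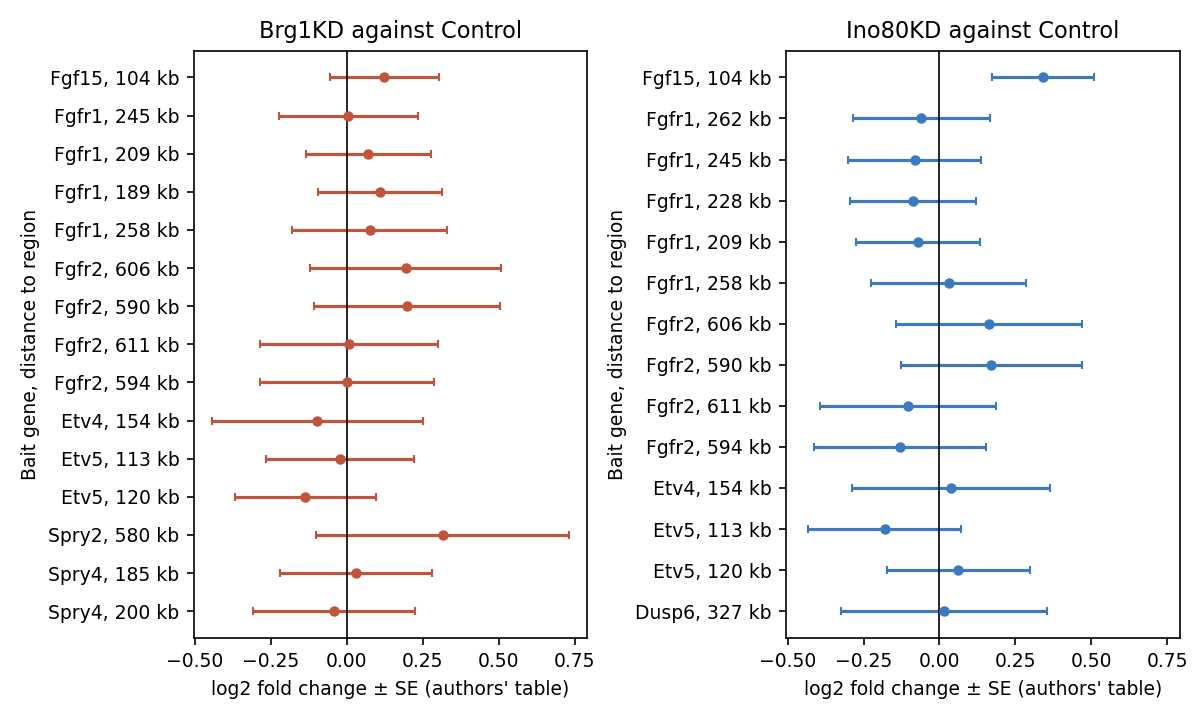
Log2 fold change with its SE from the authors' deposited tables for each entry of an FGF gene bait, Brg1KD against Control on the left and Ino80KD against Control on the right, labelled by gene and distance to the region. The entry of Fgf15 for Ino80KD, at 0.34 ± 0.17, is the only one whose SE bar stays clear of 0 by more than its own length.

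Among the ligands, Fgf15 encodes the mouse counterpart of the hormone-like human FGF19, and it lies beside Fgf4 and Fgf3 on chromosome 7. Its bait (144895412 to 144898581) carries a gene end. The bait had a loop 107 kb away, at 144780001 to 144800000, an end that overlaps the long noncoding RNA gene Gm34964 and the pseudogene Gm9711. This loop scored 5.40 in Brg1KD replicate 1 and 5.41 in Ino80KD replicate 1, close to the minimum, and the other 4 lists lacked it. Both libraries that listed it belong to batch 1, whose Control library did not list it.

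The tested region of Fgf15, 144739664 to 144860000, held the whole of Fgf3 (144838612 to 144843348) and ended 1.39 kb before the start of Fgf4 (144861386 to 144865245). Its mean normalized signal in the authors' deposited tables was 333 for Brg1KD with Control and 405 for Ino80KD with Control, higher than 99.1% and 99.3% of entries. The region lies only 104 kb from the bait, where the median distance over all entries was 255 and 257 kb. In the authors' deposited tables this region had a log2 fold change of 0.12 ± 0.18 (SE, p = 0.492) for Brg1KD and 0.34 ± 0.17 (p = 0.0409, adjusted p = 1.00) for Ino80KD. No other FGF gene entry had a smaller p, and 0.940% of all Ino80KD entries in the authors' deposited table had one at or below it. The difference between the depletions at this region was not tested.

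The nearest bait to Fgf4 was that of Fgf15, 30.2 kb away, and it was also the nearest to Fgf3, at 52.1 kb. In no library did a listed loop of any other bait end on Fgf3 or Fgf4.

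Of the receptors, Fgfr2 had the most listings. It has a bait on its gene end (130265452 to 130267311), the promoter shown above, and a second 4.33 kb away inside the gene (130261118 to 130262977). Both looped to the same pair of neighbouring ends 592 to 616 kb away, 129640001 to 129660000 and 129660001 to 129680000. These overlap the long noncoding RNA genes Gm33122, Gm51499, Gm39094 and Gm33248, and the tested region around them also overlaps Wdr11, a gene for a WD-repeat protein. Because the baits and ends adjoin, the 16 listings are not 16 separate contacts. There were 1 and 3 in Brg1KD, 3 and 2 in Ino80KD, and 4 and 3 in Control.

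The loop from the promoter bait to the farther of these ends, 129640001 to 129660000, was the only FGF gene loop in all 6 lists. Its score was 8.02 and 7.64 in Brg1KD, 7.68 and 7.58 in Ino80KD, and 12.65 and 9.40 in Control. Within its own list each score stood above 81.8% or more of the same-chromosome loops in depleted libraries, and at 97.5% and 93.0% in Control. The scores describe each list by itself, and no difference between groups is read from them. The same promoter bait had a log2 fold change in the authors' deposited tables of 0.0076 ± 0.29 (SE, p = 0.979) for Brg1KD and -0.10 ± 0.29 (p = 0.719) for Ino80KD over the region 129580001 to 129760000. The internal bait was at 0.19 ± 0.31 and 0.16 ± 0.31 over that region in the authors' deposited tables. Neither set differed from 0 beyond its error. The SE of about 0.3 leaves room for changes of the size of 0.5 on the log2 scale in either direction.

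Fgfr1, the receptor that binds Fgf4 in embryonic stem cells, had 10 listings over 6 loops, and they moved between neighbouring ends from library to library. There were 0 and 4 in Brg1KD, 3 and 0 in Ino80KD, and 2 and 1 in Control. The bait on its gene end (chromosome 8, 25517652 to 25520511) looped to 25260001 to 25280000, which overlaps the long noncoding RNA gene Gm39145 and lies within 2 kb of Gm39144, in both Control libraries and Brg1KD replicate 2. Its scores there were 8.07 in Brg1KD replicate 2, and 5.68 and 6.96 in Control. This was the single FGF gene loop found in both Control lists and neither Ino80KD list, 1 of 14 in the union of those lists, where 2.76% of all loops were. In the other directions there was no such FGF gene loop. The shares of all loops were 1.95% for both Brg1KD and neither Control list, 3.56% for both Control and neither Brg1KD list, and 2.50% for both Ino80KD and neither Control list. They were 3.77% for both Ino80KD and neither Brg1KD list and 2.18% for both Brg1KD and neither Ino80KD list. Ino80KD replicate 1 instead listed the ends on either side of it, 25240001 to 25260000, which overlaps Tacc1, a gene for a centrosomal protein, and 25280001 to 25300000.

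The authors' deposited tables, which pool these ends, gave log2 fold changes of 0.0051 ± 0.23 (SE) for Brg1KD and -0.082 ± 0.22 for Ino80KD over the region 25200001 to 25380000. The other entries of the gene-end bait lay between 0.071 and 0.11 in the authors' deposited table for Brg1KD and between -0.087 and -0.059 in that for Ino80KD, each with p above 0.59. The end at 25260001 to 25280000 was also reached by other baits, among them those of Letm2, Nsd3 and Ddhd2. Another, with no named gene (25512534 to 25514393), lies a few kb from the gene-end bait of Fgfr1, on the side of the contacted end. It looped to this end in both Ino80KD libraries (scores 8.61 and 6.79) and in Control replicate 1 (7.86). Together the other baits had 4 and 2 loops to the end in Brg1KD, 6 and 5 in Ino80KD, and 3 and 3 in Control. The end was thus listed in every library, including the 3 in which no Fgfr1 loop to it was listed.

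Etv5 and Etv4 encode related ETS factors of the PEA3 family. Etv5 had 5 listings, 1 and 0 in Brg1KD, 0 and 1 in Ino80KD, and 2 and 1 in Control. They ended at 22540001 to 22560000 on chromosome 16, about 110 kb away, inside the neighbouring gene Dgkg, which encodes a diacylglycerol kinase, and over the long noncoding RNA gene Gm15651. From the bait on the gene end (22438831 to 22440690) this loop scored 6.96 in Brg1KD replicate 1, 6.69 in Ino80KD replicate 2, and 5.04 and 5.73 in Control. It was in 4 lists, at least 1 in each group. The log2 fold change of that bait in the authors' deposited tables was -0.14 ± 0.23 (SE, p = 0.558) for Brg1KD and 0.062 ± 0.24 (p = 0.793) for Ino80KD.

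Etv4 had a single listing, in Control replicate 1 at a score of 5.03, from its bait on chromosome 11 (101784571 to 101786430) to 101940001 to 101960000. That end lies over the long noncoding RNA gene 4930417O22Rik. Its log2 fold change in the authors' deposited tables was -0.097 ± 0.35 (SE) for Brg1KD and 0.039 ± 0.33 for Ino80KD, over a region that overlaps Meox1, Sost and Dusp3.

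The same-chromosome loops of the 3 inhibitor genes were few, and the 4 listings were in depleted libraries, a distribution that was not tested. Depleted libraries were 4 of the 6 and listed 12313 to 14752 same-chromosome loops each, beside 15385 and 14451 in Control. The listings at Spry2 and Spry4 scored close to the minimum of 5. Spry2 had a single one, in Brg1KD replicate 1 at a score of 5.17, to an end 587 kb away on chromosome 14 (105300001 to 105320000) that overlaps Ndfip2, an adaptor gene of the ubiquitin ligases of the NEDD4 family. Dusp6 had a single one, in Ino80KD replicate 2 at 6.24, to an end 327 kb away on chromosome 10 (99580001 to 99600000) that overlaps no annotated gene. Spry4 had 1 in each Brg1KD library and 0 in the other 4, at scores of 5.47 and 5.15. These were adjacent ends on chromosome 18, 38800001 to 38820000 in replicate 1 and 38780001 to 38800000 in replicate 2, both inside Arhgap26. The Spry4 bait (38600529 to 38602388) also carries an end of Arhgap26, so the contact cannot be given to either gene. The same limit holds for the gene-end baits of Fgfr1 and Etv4, which also carry an end of Gm31288 and of Gm39392.

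In the authors' deposited table for Brg1KD the Spry4 entries were at 0.030 ± 0.25 (SE, p = 0.906) and -0.042 ± 0.27 (p = 0.875), both close to 0 although both Brg1KD lists and no Control list held a loop there. Spry2 was at 0.32 ± 0.42 (SE, p = 0.449) among the Brg1KD entries of the authors' deposited table, where it had both the highest value and the largest SE among the FGF gene entries. In the authors' deposited table on Ino80KD cells, Dusp6 was at 0.015 ± 0.34 (p = 0.966). Spry2 and Spry4 had no entry in the table for Ino80KD and Dusp6 none in that for Brg1KD.

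Of 63 other genes of the pathway, 48 had a bait, with 67 baits in all. They had 38 and 35 loops in Brg1KD, 54 and 53 in Ino80KD, and 50 and 42 in Control, or 2.89 ± 0.283 per 1000, 3.70 ± 0.0560 and 3.08 ± 0.243 (SD, n = 2 each). Ino80KD libraries were 1.20 times Control and lay above it without overlap, at an exact permutation p of 0.333, the smallest this design allows. Brg1KD was at 0.938 times Control (exact permutation p = 0.667). By role, genes that relay the signal between receptor and ERK had 10 and 10 loops in Brg1KD, 21 and 21 in Ino80KD, and 18 and 11 in Control. Per 1000 same-chromosome loops these were 0.812 and 0.767 in Brg1KD, 1.42 and 1.48 in Ino80KD, and 1.17 and 0.761 in Control. Brg1KD and Control thus overlapped per 1000. Numbers of loops for other ligand genes were 13 and 8, 12 and 13, and 15 and 12. The other inhibitor genes had 6 and 9, 13 and 8, and 7 and 12.

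Among these genes, at least 20 listings were found for Fgf11, an intracellular FGF homologous factor (32), Hras, a RAS gene (23), and Dusp9, an ERK phosphatase gene on the X chromosome (22). Hras had 3 and 1 loops in Brg1KD, 5 and 7 in Ino80KD, and 5 and 2 in Control. In the authors' deposited tables, 0 of 109 entries at the other pathway genes had an unadjusted p under 0.05 for Brg1KD, against 1.20% of all 33243. For Ino80KD, 1 of the 110 entries of the authors' deposited table did, against 1.29% of all 34774. It was an entry of the ERK pathway inhibitor Spred1 at 0.50 ± 0.25 in the authors' deposited table (SE, p = 0.0419). It did not pass an adjusted p of 0.05. None of the 10 FGF genes reached the 20 listings that were set for naming genes with a similar pattern over the libraries, the most being 16 at Fgfr2, so no such genes are given.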

How the data were processed

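Per the file headers and the values, the authors deposited a loop list per library, in which each line has a bait, another end and an interaction score of at least 5. The program and the version that made the lists and tables are not given in the sources used here. The submitters' processing notes name mm10 as build and bedtools among the tools. The authors' deposited comparison tables list for each entry the mean signal after normalization, the log2 fold change, its SE, a score that equals fold change over SE, and p-values before and after adjustment. Weighted versions of both p-values are listed as well and were not used here. No counts per library were in the files used, so the depth per library is unknown, no count model was fitted, and the authors' fold changes are given as deposited.

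Baits were named with the RefSeq genes of GRCm38.p6, by gene body extended by 2 kb, and all 10 genes matched. The annotation has no strand, so exons, introns and UTRs are not told apart. Loops were counted per library and per 1000 same-chromosome loops with Python 3.11.15 and pandas 2.3.3. Groups were compared by exact permutation tests (two-sided), and 95% Wilson intervals were computed with SciPy 1.17.1. The routines were tested on simulated data. Replicate numbers are batches for Ino80KD and Brg1KD, which were paired on the labels; for Control only replicate 1 shares a batch with the depletions. The group lists of positions were not used. All 10 genes are named, with for each the entry of smallest p per table, ends of loops listed in at least 4 libraries or separating 2 groups, and other pathway genes with 20 or more listings or an entry at p under 0.05; further ends are given to describe every gene. The genes, lists and tests were chosen with earlier results of these data known. Alternatives covered the bait window, a score minimum of 7, merging of ends within 5 kb, the denominator, each gene and each library left out, batch 1 alone, pairing, p under 0.01, and an unweighted median.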

Additional observations from a re-analysis of the deposited data

How the results depend on the processing

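For loops per 1000, no alternative gave an exact permutation p under 0.33. The log2 ratio of Brg1KD to Control, 0.13, turned to -0.11 with raw numbers of loops, -0.037 without Fgfr1, -0.11 without Spry4 and -0.53 within batch 1, and ranged from -0.20 to 0.56 with a library left out. That of Ino80KD to Control, -0.30, turned to 0.46 with a score minimum of 7 and ranged from -0.72 to 0.13 with a library left out. That of Ino80KD to Brg1KD, -0.43, ranged from -0.85 to -0.10 with a library left out and kept its sign in the other 16 alternatives. With replicate numbers as a block the log2 ratios were 0.15, -0.30 and -0.45, with a smallest possible p of 0.5, and no call changed; within the batches that Ino80KD and Brg1KD share they were 0.22 and -1.12. A score minimum of 7 left loops at 2 genes, Fgfr1 and Fgfr2, instead of 8, and moved the mean of the median spans from 344 to 553 kb. The single Ino80KD entry at p under 0.05 was lost at p under 0.01 (0 entries) and at an adjusted p under 0.05 (0 entries). Counting entries of other baits whose region overlaps an FGF gene, added after seeing the data, gave 4 for Brg1KD instead of 0. The 4 were overlapping entries of a single bait, that of Meox1. Over all 33243 Brg1KD entries 1.20% had an unadjusted p under 0.05. The log2 ratio of Brg1KD to Control at the other pathway genes, -0.093, was 0.020 with baits near gene ends only. The cause of these changes was not tested beyond the fewer loops or libraries that an alternative keeps. With 4 to 9 loops per library, modest changes were not detectable.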

Other observations

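Regions that overlap Etv4 were also tested from the baits of its neighbours, which the rule for baits leaves out; these entries were looked up after their values were seen. The bait of Meox1, a homeobox gene (chromosome 11, 101893635 to 101895494), had 4 overlapping entries over Etv4 in the authors' deposited table for Brg1KD, with log2 fold changes of 0.37 to 0.40. The entry that starts at the Etv4 bait was at 0.40 ± 0.18 in the authors' deposited table (SE, p = 0.0239, adjusted p = 1.00). The 4 regions overlap and the entries are not separate support. They are all of the entries with an unadjusted p under 0.05 among 33 such entries of other baits at 5 FGF genes. Over all 33243 entries the share was 1.20% (0.373% higher and 0.827% lower). The bait of Etv4 itself, over a region that holds the Meox1 bait, was at -0.097 ± 0.35 (SE) in the same authors' deposited table. In the authors' deposited table for Ino80KD, 3 entries of the Meox1 bait over Etv4 were at 0.13 each, with SE 0.18 to 0.19. There 0 of 27 entries of other baits over FGF genes had an unadjusted p under 0.05, against 1.29% of all 34774 entries.

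Fgf3, at which no bait was seen in the files, was overlapped by tested regions of the baits of Ano1, a chloride channel gene, and Fadd, a gene for a death receptor adaptor. The Ano1 entry was at 0.44 ± 0.25 in the authors' deposited table for Brg1KD (SE, p = 0.0746). The Fadd entry over the same region as that of Fgf15 was at 0.20 ± 0.27 for Brg1KD and 0.26 ± 0.27 for Ino80KD in the authors' deposited tables.

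Spry4 was the FGF gene on which unbaited ends of other loops fell. There was 1 in each Brg1KD library, from a bait on chromosome 18 that overlaps Arhgap26 and Fgf1 (score 5.25) and from a bait near Taf7 (score 5.07), and 0 in the other 4 lists. These are different loops, of 339 and 951 kb, both close to the minimum score of 5, and their distribution was not tested. Entries of the first bait over Spry4 lay between -0.16 and -0.023 in the authors' deposited table for Brg1KD, with SE of 0.23 to 0.24. The FGF gene baits had 2 interchromosomal loops, 1 of Etv4 in Brg1KD replicate 1 and 1 of Spry4 in Control replicate 2.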
